A study of Oryza sativa with 7 samples.

Results

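Cytokinin oxidase/dehydrogenases, the CKX enzymes, break down the plant hormone cytokinin by cleaving its side chain, which ends its activity. In roots, cytokinin opposes auxin during the founding of lateral and shoot-borne roots. Among the better known rice members of the family, OsCKX2 (Gn1a) influences grain number and OsCKX4 promotes the formation of crown roots, which grow out of the stem base and form the bulk of the rice root system.

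The genes described here are OsCKX2 to OsCKX11, 10 locus identifiers chosen by name, whatever their values, though with earlier results of these data known. The files list 24775 identifiers in all, among them 7 of these 10. In this order they are LOC_Os01g10110, LOC_Os10g34230, LOC_Os01g71310, LOC_Os01g56810, LOC_Os02g12770, LOC_Os02g12780, LOC_Os04g44230, LOC_Os05g31040, LOC_Os06g37500 and LOC_Os08g35860. The identifiers place them on chromosomes 1, 2, 4, 5, 6, 8 and 10, with OsCKX6 and OsCKX7 next to each other on chromosome 2. RNA was sequenced from crown root primordia at outgrowth (2 libraries), primordia at initiation (3 libraries) and ground tissue, the control (2 libraries). All came from the stem base of wild-type IR64 rice seedlings grown for 6 days on half-strength (1/2) MS medium, and chosen cells were cut from tissue sections by laser capture microdissection. The libraries held 8351775 to 25448025 reads in genes. Replicates 1 and 3 of initiation were closer to each other than counting noise alone would make 2 libraries, and were treated as 1 sample, so each group had n = 2. No label says which plants a library came from, and the p-values rest on a spread between libraries that may be technical. The outgrowth files also differ from the rest in header format and gene order, so a separate batch and the stage cannot be told apart. The labelled tissues were not checked against marker genes, since the files do not pair identifiers with names.

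The family was thinly read everywhere, and 7 of the 10 genes had at least 1 read. CPM, used below for levels, is reads per 1000000 reads of a library and is not scaled for gene length, so levels are compared between groups and not between genes. Summed over the family, the level was 12.3 ± 2.93 CPM at outgrowth, 12.9 ± 2.096 CPM at initiation, and 13.4 ± 9.12 CPM in the ground tissue (SD, n = 2 each). The control pair spread most: the sum was 6.94 CPM in replicate 1 and 19.8 CPM in replicate 2, on either side of the range of 10.2 to 14.4 CPM in the primordium libraries. Each library pools captured cells, so fewer cells of a type and less RNA per cell cannot be told apart.

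**Figure D1:**
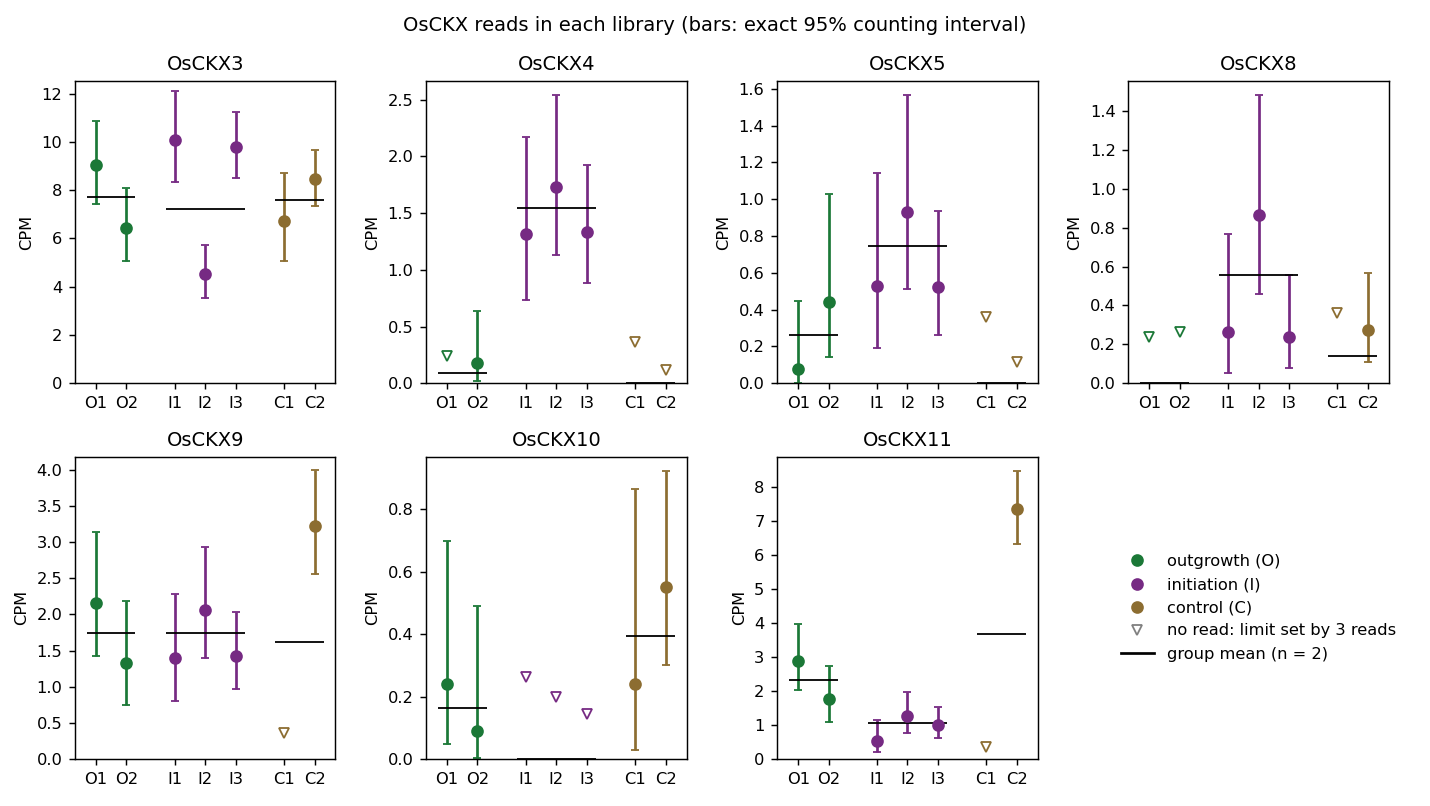
CPM (y axis) of the 7 OsCKX genes with reads in outgrowth (O), initiation (I) and control (C) libraries (x axis). Points carry exact 95% counting intervals, open triangles mark the limit that 3 reads would set in a library without a read, and black lines are group means (n = 2, initiation replicates 1 and 3 counted once). OsCKX4 lies between 1.31 and 1.73 CPM at initiation and at or below 0.176 CPM elsewhere, while OsCKX9 and OsCKX11 have their highest value in control replicate 2 and no read in control replicate 1.

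OsCKX4, the crown root promoting member, was higher at initiation than in control. It had 0 and 0.176 CPM in outgrowth replicates 1 and 2, then 1.31, 1.73 and 1.33 CPM in initiation replicates 1, 2 and 3, and no read in either control library. Every initiation library was above every other library, by counts of 15, 26 and 28 reads against 0 and 2 at outgrowth and 0 in control. The mean was 1.54 ± 0.266 CPM at initiation (SD, n = 2), which is 17.4-fold higher than a floor of 3 reads over both control libraries. With counting error on both sides, the ratio of initiation to control in pooled reads was at least 13.5 (95% counting interval). The edgeR adjusted p was 0.0380 with no filter on low counts. It was 0.0349 with the filter, which OsCKX4 passed only through the initiation libraries. The floor and the interval cover counting error only. At the initiation level, 10.98 to 14.5 reads would be expected at the total of control replicate 1 and 33.4 to 44.1 at that of control replicate 2. Genes with such expectations from the other control library had no read in 29.3% of 1303 cases (10 to 20 reads expected in control replicate 1) and in 4.47% of 1207 cases (20 to 50 in control replicate 2). The part of such missing reads in the OsCKX4 value was not tested.

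The comparison of initiation with control thus called 1 member higher and 0 lower (1 at an unadjusted p below 0.05, and the same count by DESeq2 and limma). Over all 18836 genes tested with edgeR's quasi-likelihood test, 14.4% were called higher and 16.0% lower. Only 4 members reached the filter of 1 CPM in 2 libraries (OsCKX3, OsCKX4, OsCKX9 and OsCKX11). The OsCKX4 call was lost without outgrowth replicate 1 or 2 (edgeR adjusted p = 0.0615 and 0.0682), and without either initiation sample the gene was not tested. Without control replicate 1 the count was 2 members, OsCKX4 higher and OsCKX11 lower, and without control replicate 2 it was 3 higher, OsCKX4, OsCKX9 and OsCKX11. The OsCKX4 call was also made by DESeq2 (adjusted p = 0.0433) and by limma on log2(CPM + 1) (adjusted p = 0.0120). Both were run only after the same filter, which OsCKX4 passed through the initiation libraries alone, so neither is separate support.

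**Figure D2:**
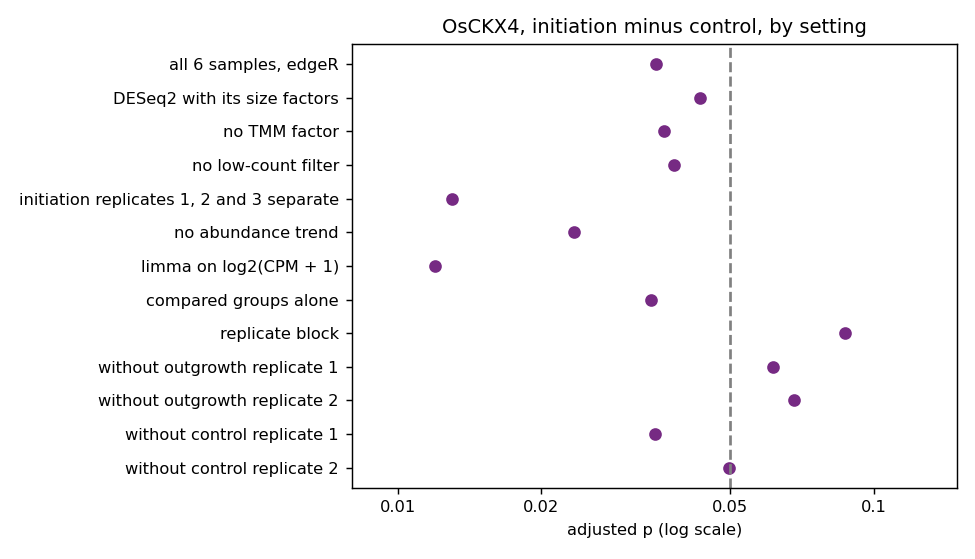
Adjusted p (x axis, log scale) of OsCKX4 for initiation minus control, with all 6 samples at the top and one alternative setting per row below. The dashed line is the threshold of 0.05. Of the 12 alternatives that tested the gene, 3 lie above it, the highest at 0.0870 with the replicate number as a block. Settings in which it was not tested (5 CPM in 2 libraries, and without either initiation sample) are not drawn. Apart from the row with no low-count filter, all rows use a filter that OsCKX4 passed only through the initiation libraries, so they are not separate support.

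Between the stages, OsCKX4 had 2 reads pooled over outgrowth and 48 pooled over the 2 initiation samples. The ratio of outgrowth to initiation was 0.0546 with a 95% counting interval of 0.00643 to 0.208. The fitted log2 fold change was -4.09 with a 95% interval of -7.81 to -0.37, and it did not pass the threshold (edgeR adjusted p = 0.253, with 0.0392 before adjustment). Against control, the 2 outgrowth reads allow no fold, and the test gave an edgeR adjusted p of 0.297.

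OsCKX5 followed the same order of levels at lower counts. It had 0.0799 and 0.441 CPM in outgrowth replicates 1 and 2, then 0.526, 0.932 and 0.523 CPM in initiation replicates 1, 2 and 3, and no read in control. All initiation libraries were above the others, though outgrowth replicate 2, with 5 reads, lay close to initiation replicates 1 and 3, with 6 and 11, and its 95% counting interval of 0.143 to 1.03 CPM covers them. Its initiation mean of 0.743 ± 0.267 CPM (SD, n = 2) is 8.38-fold higher than the control floor, and its outgrowth mean of 0.260 ± 0.255 CPM is 2.93-fold higher. The 95% counting intervals of the ratios to control in pooled reads start at 6.22 for initiation and 1.67 for outgrowth. They cover counting error only. At the initiation level, 4.37 to 7.79 reads would be expected at the total of control replicate 1 and 13.3 to 23.7 at that of control replicate 2. The part of missing reads in the OsCKX5 control values was not tested. OsCKX5 was under the filter, and with no filter it was not called at initiation against control (edgeR adjusted p = 0.0972), at outgrowth against control (edgeR adjusted p = 0.228) or between the stages (edgeR adjusted p = 0.832).

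OsCKX8 and OsCKX10 had few reads, and each lacked reads in a whole group of primordia. OsCKX8 was without a read at outgrowth, had 0.263, 0.866 and 0.238 CPM in initiation replicates 1, 2 and 3, and 0 and 0.275 CPM in control replicates 1 and 2. The initiation and control libraries overlapped. Against an initiation mean of 0.556 ± 0.438 CPM (SD, n = 2), the floor of 3 reads over the outgrowth group was 4.42-fold lower. The ratio of outgrowth to initiation in pooled reads was at most 0.317 (95% counting interval). OsCKX10 had 0.240 and 0.0882 CPM in outgrowth replicates 1 and 2, no read in any initiation library, and 0.239 and 0.550 CPM in control replicates 1 and 2. These are 3, 1, 2 and 14 reads, and the outgrowth and control ranges overlap. The floor of 3 reads over the initiation group was 4.11-fold lower than the OsCKX10 control mean. The ratio of initiation to control in pooled reads was at most 0.280 (95% counting interval). With no filter, edgeR adjusted p was 0.397 for OsCKX8 between the stages and 0.203 for OsCKX10 at initiation against control, so neither difference passed the test.

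OsCKX3 was read in all 7 libraries and gave the most precise values in the family. It had 9.03 and 6.44 CPM in outgrowth replicates 1 and 2, then 10.1, 4.53 and 9.79 CPM in initiation replicates 1, 2 and 3, and 6.71 and 8.45 CPM in control replicates 1 and 2. The means were 7.73 ± 1.83, 7.22 ± 3.81 and 7.58 ± 1.23 CPM at outgrowth, at initiation and in control (SD, n = 2 each), and the initiation range encloses the other 2. The 95% intervals of the log2 fold change ran from -1.27 to 1.41 for outgrowth minus control, from -1.32 to 1.35 for initiation minus control and from -1.28 to 1.39 for outgrowth minus initiation. Differences of up to 2-fold in either direction thus lie within every interval. Within initiation, replicate 2 was below the others by more than counting error, with a 95% counting interval of 3.52 to 5.74 CPM against 8.32 to 12.1 CPM in replicate 1.

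OsCKX9, which has been tied to strigolactone response and shoot architecture in rice, and OsCKX11, linked to leaf senescence, differed widely within the control pair. OsCKX9 had 2.16 and 1.32 CPM in outgrowth replicates 1 and 2, then 1.40, 2.06 and 1.43 CPM in initiation replicates 1, 2 and 3, and 0 and 3.22 CPM in control replicates 1 and 2. The primordium libraries of both stages overlapped and lay between the control libraries. OsCKX11 had 2.88 and 1.76 CPM in outgrowth replicates 1 and 2, then 0.526, 1.27 and 0.998 CPM in initiation replicates 1, 2 and 3, and 0 and 7.35 CPM in control replicates 1 and 2. Both outgrowth libraries were above all initiation libraries, and again the control pair enclosed them all.

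At the level of control replicate 2, control replicate 1 would be expected to hold 26.9 reads of OsCKX9 and 61.4 reads of OsCKX11, and it held none of either. Control replicate 2 was 8.97-fold higher for OsCKX9 and 20.5-fold higher for OsCKX11 than a floor of 3 reads in control replicate 1. The 95% counting intervals of the ratios between the control libraries start at 7.13 and 16.5. Missing reads of this kind were found across the library. With 20 to 50 reads expected, 11.9% of 2264 genes had no read in control replicate 1, against 4.47% of 1207 genes in control replicate 2. With 50 to 100 expected, 1.81% of 2263 genes had none in control replicate 1, against 1.87% of 1230 in control replicate 2. The part of these missing reads in the OsCKX9 and OsCKX11 values was not tested.

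**Figure D3:**
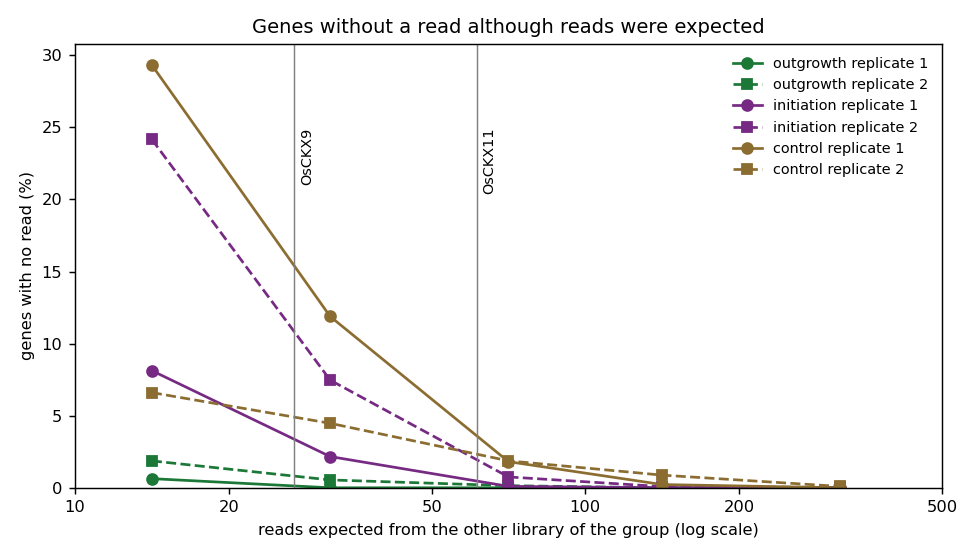
Percentage of genes without a read (y axis) by the reads expected from the other library of the group (x axis, log scale, bins drawn at their geometric middle), for each library with initiation replicate 3 left out. Grey lines mark the expectation for OsCKX9 and OsCKX11 in control replicate 1, 26.9 and 61.4 reads. Control replicate 1 has the highest share in the bins under 50 reads, and the outgrowth libraries stay at or below 1.87%.

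The comparisons of OsCKX9 and OsCKX11 with control turned on which control library was used. With both, OsCKX11 had a log2 fold change of -0.65 ± 1.53 (SE) for outgrowth minus control and -1.72 ± 1.58 for initiation minus control, and neither passed (edgeR adjusted p = 0.783 and 0.443). Without control replicate 1, OsCKX11 was called lower at initiation, with a log2 fold change of -2.72 (edgeR adjusted p = 0.0258), and it was not called at outgrowth, with -1.65 (edgeR adjusted p = 0.122). Without control replicate 2 it was called higher at both stages (edgeR adjusted p = 0.0183 at outgrowth and 0.0330 at initiation). OsCKX9 had log2 fold changes of 0.09 ± 1.46 for outgrowth minus control and 0.14 ± 1.45 for initiation minus control (edgeR adjusted p = 0.970 and 0.954). Without control replicate 2 it was called higher at both stages (edgeR adjusted p = 0.0226 at outgrowth and 0.0206 at initiation), and without control replicate 1 its values turned to -0.87 and -0.82, not called (edgeR adjusted p = 0.445 and 0.454). A single control library is then assumed to vary like the other groups.

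Outgrowth against control called 0 of the 4 tested members by edgeR, with 0 at an unadjusted p below 0.05 and 0 by DESeq2 or limma, beside 26.4% of all genes tested (12.8% higher and 13.6% lower). The count was 2 without control replicate 2. Outgrowth against initiation called 0 of the 4 by edgeR, with 1 (OsCKX4) at an unadjusted p below 0.05 and 0 by DESeq2 or limma, beside 3.07% of all genes (1.23% higher and 1.84% lower). DESeq2 gave OsCKX4 no adjusted p between the stages, so it could not call the gene, and the limma adjusted p was 0.0622. OsCKX11 averaged 2.32 ± 0.786 CPM at outgrowth and 1.06 ± 0.285 CPM at initiation (SD, n = 2 each). Its log2 fold change of 1.07 had a 95% interval of -2.59 to 4.72 (edgeR adjusted p = 0.825). OsCKX9 was at 1.74 ± 0.590 CPM at outgrowth and 1.74 ± 0.458 CPM at initiation. Its interval of -3.45 to 3.35 on the log2 scale leaves large differences possible in this fit. The fit takes 1 spread per gene over all groups, the control pair included. With the compared groups alone, the log2 fold change was -0.05 ± 0.67 (SE) for OsCKX9 and 1.07 ± 0.68 for OsCKX11. Neither was called (edgeR adjusted p = 0.974 and 0.366). The median log2 fold change of the 4 tested members was 0.08 for outgrowth minus control, 0.08 for initiation minus control and 0.00 for outgrowth minus initiation, against -0.02, -0.05 and 0.03 over all genes tested. The comparisons share libraries and are not independent.

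**Figure D4:**
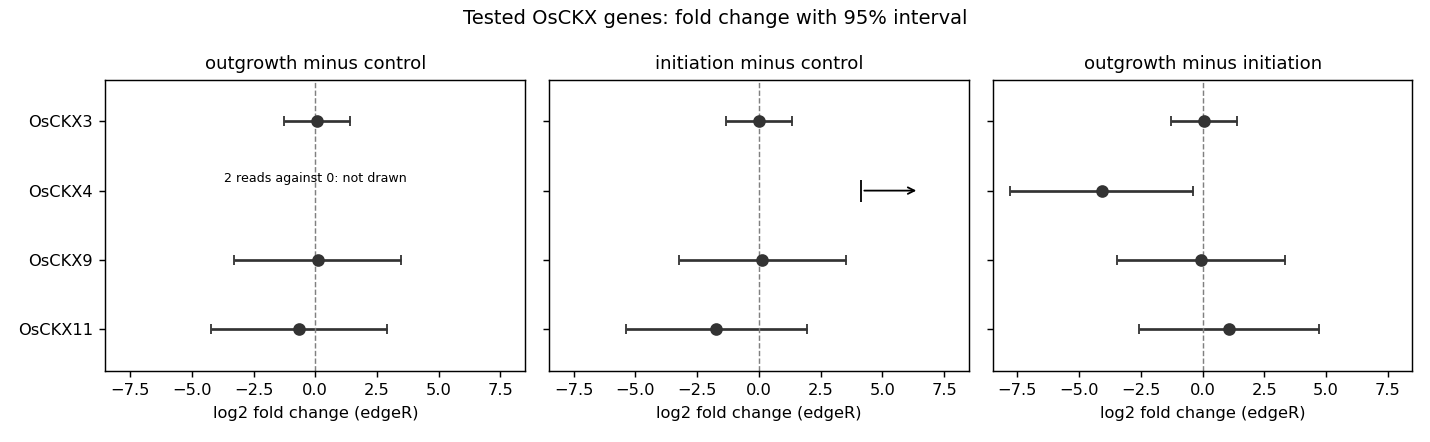
edgeR log2 fold changes (x axis) of the 4 tested OsCKX genes with 95% intervals, one panel per comparison. The arrow for OsCKX4 at initiation against control is not an edgeR interval. It starts at 17.4-fold on a linear scale, the initiation mean over a floor of 3 control reads. That value leaves out the counting error of the mean, with which the pooled ratio was at least 13.5 (95% counting interval). The edgeR 95% interval, not drawn, ran from 2.72 to 12.4 on the log2 scale. OsCKX4 at outgrowth against control is not drawn because it rests on 2 reads against 0. Apart from OsCKX4, intervals cross 0 in every panel.

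The makeup of the family's reads differed between libraries. Shares are of reads and not of molecules per length, over 180 and 116 reads at outgrowth, 161, 171 and 301 at initiation and 58 and 505 in control. OsCKX4 took 0% and 1.72% of them in outgrowth replicates 1 and 2. Its share was 9.32%, 15.2% and 9.30% in initiation replicates 1, 2 and 3, and 0% in both control libraries. In control, 3 reads would make 5.17% in replicate 1 and 0.594% in replicate 2. The exact 95% counting intervals of these 0 counts end at 6.16% and 0.728%. OsCKX3 took 62.8% and 62.9% at outgrowth, 71.4%, 39.8% and 68.4% at initiation, and 96.6% and 42.6% in control replicates 1 and 2. OsCKX11 took 20.0% and 17.2% at outgrowth, 3.73%, 11.1% and 6.98% at initiation, and 0% and 37.0% in control replicates 1 and 2. The outgrowth pair had much the same makeup, apart from the few reads of OsCKX4, OsCKX5 and OsCKX10. Only OsCKX3 and OsCKX10 had reads in both control libraries, and the OsCKX3 share differed widely between them.

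**Figure D5:**
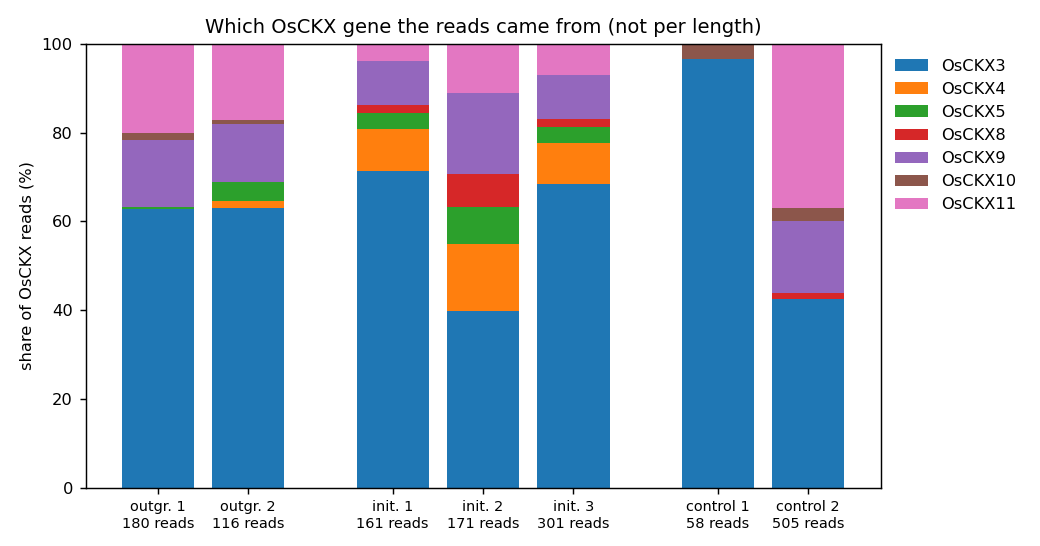
Share of the family's reads (y axis, %) taken by each OsCKX gene, as stacked bars for each library (x axis, with the number of family reads). OsCKX4 is visible at initiation (9.30% to 15.2%) and nearly absent elsewhere, and OsCKX11 takes 37.0% in control replicate 2 and 0% in control replicate 1.

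OsCKX2, OsCKX6 and OsCKX7 had no read in any of the 7 libraries. The floor of 3 reads, which is slightly below the end of the exact 95% counting interval of a 0, differed by library. It was 0.240 and 0.265 CPM in outgrowth replicates 1 and 2, and 0.263, 0.200 and 0.143 CPM in initiation replicates 1, 2 and 3. In control replicates 1 and 2 it was 0.359 and 0.118 CPM. These genes were not detectable at this depth, which does not show them to be absent.

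Other cytokinin genes were read from lists of loci recalled from rice gene nomenclature, which neither the files nor the reference table pair with names, so they are given as counts only. Of 21 loci assigned to cytokinin synthesis and activation, 17 had a read and 10 were tested. At outgrowth against control 0 were called higher and 1 lower, at initiation against control 2 and 2, and at outgrowth against initiation 0 and 2 (edgeR). Their median log2 fold changes were -0.81, 0.18 and -1.11. Of 12 loci assigned to the type-A response regulators, early cytokinin-induced genes that damp the response, 9 had a read and 8 were tested. At outgrowth against control 1 was called higher and 3 lower, at initiation against control 0 and 2, and between the stages 0 were called by edgeR and limma, with 4 at an unadjusted p below 0.05 and 2 called by DESeq2. Their median log2 fold changes were -0.38, -1.41 and 0.35. Over all genes tested, 26.4%, 30.4% and 3.07% were called in either direction, and the list counts rest on 10 and 8 tested loci. Leaving out 1 sample at a time gave 0 to 2, 2 to 4 and 0 to 5 called loci of the synthesis list and 1 to 4, 2 to 3 and 0 to 3 of the type-A list, in the same order of comparisons. Without outgrowth replicate 1 or 2, the synthesis list had 0, 2 and 0 called loci and the type-A list 1, 2 and 0.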

How the data were processed

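The members and lists were chosen with earlier results of these data known. Total RNA of laser-captured tissue was isolated with a PicoPure kit and made into low-input SMARTer libraries, per the labels' protocols. STAR was the aligner named in the submitters' processing notes. For its version, the counter, strand, genome build and annotation: not given in the sources used here. The deposited values are headed FPKM but were read as counts, since each is a whole number and none is under 1, and file totals run from 8351775 to 25448025. A gene missing from a file was taken as 0. Coordinates and sequences are not given, because none of the 24775 identifiers matched the RefSeq table used here (assembly ASM3414082v1). The names OsCKX2 to OsCKX11 follow the order of the identifiers in the rule that chose the genes, and 6 of the 10 names occur in that table.

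Initiation replicates 1 and 3 were averaged and rounded, as their squared difference was 0.400 times the counting noise, where it was 27.5 times that noise between replicates 1 and 2, 9.08 at outgrowth and 50.1 in control. CPM uses file totals. All 6 samples entered edgeR 4.0.16 (R 4.3.3; quasi-likelihood test, TMM scaling, abundance trend, group means without a block), over the 18836 genes reaching 1 CPM in 2 or more libraries. p-values are two-sided and Benjamini-Hochberg adjusted within each comparison over all these genes, with a threshold of 0.05. Standard errors are the log2 fold change over the root of F. A fold against a group or library without reads sets the level of the other side against a floor of 3 reads. It leaves out the counting error of that level, which the counting interval of the ratio includes. Counting intervals are exact Poisson or conditional binomial (95%), without molecular identifiers, and cover counting error only. The named genes are all 10 members. Alternatives were DESeq2 1.42.0, limma 3.58.1, other filters, scaling and dispersion, a replicate block and leaving out each sample. The script was tested on simulated data.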

Additional observations from a re-analysis of the deposited data

How the results depend on the processing

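Of the member fold changes recomputed under the alternatives, 131 kept their direction and side of the threshold, 25 turned in sign (2 of which, OsCKX11 at both stages without control replicate 2, also newly passed), 3 others newly passed in the same direction and 3 no longer passed, and the cause of these shifts was not tested except where a gene or sample left the fit. The call of OsCKX4 at initiation against control ended with the replicate number as a block (adjusted p = 0.0870, 0 members called) and at 5 CPM in 2 libraries, where it was not tested (0 members called). Deviations of same-numbered samples from their group means correlated at -0.03 to 0.02, with initiation replicates 1 and 3 averaged. With so few samples this cannot tell whether equal numbers share a batch, which was not tested. The block moved the calls over all genes to 4431 at outgrowth and 5154 at initiation against control and to 630 between the stages. Small fold changes turned sign for OsCKX3 at initiation against control (-0.072 without TMM, -0.013 at 5 CPM, -0.056 by limma, -0.086 with the block) and between the stages (-0.10 with initiation replicates 1, 2 and 3 separate). They turned for OsCKX9 at outgrowth against control (-0.010 with no abundance trend) and between the stages (0.0014 without TMM, 0.052 with separate initiation replicates, 0.19 with the block), and for OsCKX11 at outgrowth against control (0.20 by limma, 0.30 with the block). DESeq2 gave no adjusted p for OsCKX4 between the stages, and leaving out outgrowth replicate 2 left it with 0 reads on both sides of the comparison with control.

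Leaving out 1 sample at a time, 0 to 2 members were called at outgrowth against control and 0 to 3 at initiation against control. Over all genes, 1548 to 7590, 3026 to 7969 and 0 to 1807 were called at outgrowth against control, at initiation against control and between the stages, where 4981, 5721 and 578 were called with all samples. In that order the log2 fold change ranged from -0.18 to 0.30, -0.63 to 0.46 and -0.39 to 0.70 for OsCKX3, and from -0.87 to 7.46, -0.82 to 7.51 and -0.43 to 0.27 for OsCKX9. For OsCKX11 it ranged from -1.65 to 7.88 and from -2.72 to 6.81 against control. The highest of these stand against a control without reads and depend on the prior count. Synthesis and activation loci called ranged from 0 to 2, 2 to 4 and 0 to 5, and type-A loci from 1 to 4, 2 to 3 and 0 to 3.

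Between the stages, the count over all genes was 1808 by DESeq2, 1554 with no filter, 1624 with separate initiation replicates, 1027 by limma, 1951 with the compared groups alone and 0 by edgeR with no abundance trend (2987 at an unadjusted p below 0.05). Synthesis and activation loci called between the stages were 5 by DESeq2, with no filter or with the compared groups alone, 4 with separate initiation replicates and 0 with no abundance trend (5 unadjusted). Against control they were 7 at initiation with no filter, and at outgrowth 3 by DESeq2 or with separate initiation replicates, 5 with no filter, 2 with the block and 0 at 5 CPM (3 unadjusted). Type-A loci called between the stages were 2 by DESeq2 or with no filter, 1 at 5 CPM, and 3 with separate initiation replicates or the compared groups alone. Depth limits the family: no member but OsCKX3 averaged over 5 CPM in any group, so most values of the others rest on few reads. OsCKX9 and OsCKX11 had 82 and 187 reads in control replicate 2, and their spread within the control pair was beyond counting error.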
